A study of Mus musculus with 4 samples.

Results

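Replication-dependent histone genes are the gene copies that supply new histones while DNA is being copied. They were taken as all genes whose symbol begins with Hist1h, Hist2h, Hist3h or Hist4h, leaving out the 1 symbol marked as a pseudogene by "-ps", which gave 70 genes of the 45706 in the table. By type these were 6 linker histone H1 genes, 20 H2A, 19 H2B, 12 H3 and 13 H4 genes. By symbol, 56 of them were Hist1 genes, whose cluster lies on chromosome 13, and 11 were genes of the Hist2 cluster on chromosome 3. The Hist3 genes on chromosome 11 were 2, and the single Hist4 gene lay on chromosome 6. Hist1h2al lay outside the Hist1 cluster (chr13:51202727-51203065), and the annotation used gave no position for Hist1h2bh and Hist1h2bm. The symbol Hist2h2bb stands for 2 gene identifiers, so the 70 genes carry 69 symbols.

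The series measured RNA of mouse digit tips that were regenerating, at day 14 after amputation. It holds 1 library per genotype: wildtype, a conditional knockout (cKO) of Sp6, a cKO of Sp8, and a cKO of both, written Sp6+Sp8 cKO. Values for all 4 are given in that order. Sp6 and Sp8 are zinc-finger transcription factors. Per the labels' protocols, cKO mice received daily tamoxifen (75 mg/kg) over 5 days and then rested 5 days until amputation. The labels do not state whether wildtype mice received tamoxifen, nor the Cre driver, strain, age, sex or how many animals went into a library. The wildtype library carried batch label 3 and the 3 cKO libraries batch label 1. Batch and knockout cannot be told apart in the 3 comparisons with wildtype, and the 3 comparisons among cKO libraries lie within batch label 1. The 3 comparisons with wildtype share that 1 library, and the 3 that involve Sp6+Sp8 cKO share the Sp6+Sp8 cKO library.

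Histone synthesis is coupled to S phase, and the core histones H2A, H2B, H3 and H4 form the nucleosome while H1 binds the linker DNA between nucleosomes. Most of these genes have no intron, and their mRNAs normally end just after a conserved stem-loop bound by the protein SLBP, without a poly-A tail. Libraries made from poly-A RNA, as these were, therefore capture the family poorly, and near-identical copies share reads.

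The stem-loop is shown first because the poly-A selection turns on it. It was found in the annotated transcripts of 44 of the 68 histone genes present in GENCODE M21 (build GRCm38), beside 59 of all 55450 genes (0.106%). The sequences below are shown 5′ to 3′ with the 16-base stem-loop in capitals and 6 bases on either side, for copies from 4 histone types whose levels the results return to.
Hist1h1c: ccaaaaGGCTCTTTTCAGAGCCaccact
Hist1h3e: caaaacGGCTCTTTTAAGAGCCacctcc
Hist1h4d: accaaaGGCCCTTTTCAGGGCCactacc
Hist1h4i: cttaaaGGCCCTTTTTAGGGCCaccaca
Hist2h2ac: caaaaaGGCTCTTTTTAGAGCCaccaaa

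The form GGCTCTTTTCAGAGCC was carried by 24 histone genes of the H1, H2A, H2B and H3 types, and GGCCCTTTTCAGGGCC by 7, all H4. In 22 genes the annotated transcript ran on at least 100 bases past the stem-loop, in 22 it ended within 100 bases, and in 24 the annotated transcript held no match. Several of the last are annotated only to the end of the coding sequence, such as Hist1h2ai with 393 bases, 390 of them coding. No match could be found there, so this class does not mean genes without a stem-loop. Genes whose transcript ran on accounted for 51.4% of the histone counts in wildtype and 53.6%, 53.4% and 52.3% in the Sp6, Sp8 and Sp6+Sp8 cKO libraries. Their share of the histone counts was thus much alike in the 4 libraries.

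Copies of a type also share much of their coding sequence. The first 75 coding bases of 4 H4 genes show how a read may or may not tell copies apart, with capitals marking bases that differ from Hist1h4n.
Hist1h4n: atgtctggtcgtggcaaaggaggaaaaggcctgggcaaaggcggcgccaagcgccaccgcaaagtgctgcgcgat
Hist1h4m: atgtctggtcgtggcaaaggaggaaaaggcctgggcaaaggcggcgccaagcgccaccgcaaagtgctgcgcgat
Hist1h4d: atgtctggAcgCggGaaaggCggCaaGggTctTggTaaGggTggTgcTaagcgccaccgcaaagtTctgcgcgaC
Hist4h4: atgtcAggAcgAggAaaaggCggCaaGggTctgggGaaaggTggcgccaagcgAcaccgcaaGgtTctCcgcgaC

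Hist1h4n and Hist1h4m were identical over all 309 coding bases, while Hist1h4d and Hist4h4 each differed from them at 15 of the 75 bases shown. The same comparison for H3 is shown because the copies of the Hist2 cluster gave the least even values, with capitals marking differences from Hist2h3c2.
Hist2h3c2: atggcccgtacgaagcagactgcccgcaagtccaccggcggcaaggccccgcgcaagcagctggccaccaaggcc
Hist2h3c1: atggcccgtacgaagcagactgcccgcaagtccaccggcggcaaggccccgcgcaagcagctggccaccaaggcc
Hist2h3b: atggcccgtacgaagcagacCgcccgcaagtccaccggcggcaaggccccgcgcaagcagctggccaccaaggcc
Hist1h3e: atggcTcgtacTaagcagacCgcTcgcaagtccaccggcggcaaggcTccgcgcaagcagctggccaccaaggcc

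Hist2h3c1 and Hist2h3c2 were identical over the 408 coding bases compared. Across pairs of H3 genes the median identity of the coding sequence was 97.2%, across H2A pairs 96.7%, across H2B pairs 94.7% and across H4 pairs 93.9%. Every 150-base window of the annotated transcripts, the length of 1 read, was therefore compared between genes. No window was shared with another gene in 14 histone genes, and at least 50% of windows were shared in 22. Joining genes that shared any window gave 26 sequence groups, and single copies inside a group are uncertain because their reads can be divided in more than 1 way.

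The deposited values are estimated counts, totalling 21834883 in wildtype and 13054843, 12588511 and 15146015 in the Sp6, Sp8 and Sp6+Sp8 cKO libraries. Of the histone values 11.4% to 15.7% were exactly whole as deposited, with no tolerance, and of values over all genes 84.6% to 87.1%. Levels below are CPM, the counts per 1000000 counts of a library after TMM scaling. Of all 45706 genes 17332 reached 1 CPM in any library, against 63 of the 70 histone genes. Values of genes without counts are whole by definition, so the shares of whole values do not compare genes of like level. With 1 library per genotype there was no test, and the 95% intervals given with ratios are exact Clopper-Pearson intervals that cover counting error only, not differences between animals. The labels name no molecular identifiers, so copies of a molecule made by PCR may have been counted more than once.

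The targeted genes were checked first. Sp6 stood at 97.7 CPM in wildtype and 29.2, 95.6 and 57.8 in the Sp6, Sp8 and Sp6+Sp8 cKO libraries. Sp8 stood at 63.9, 66.1, 16.8 and 13.4 CPM in the same order. Each gene was lower in the libraries labelled as its knockout, and Sp6 was less reduced in Sp6+Sp8 cKO than Sp6 cKO.

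Histone transcripts were less abundant in Sp6+Sp8 cKO than in the other 3 libraries, across all 5 types. The summed level of the 70 genes was 2075 CPM in wildtype and 1980, 1950 and 1491 in the Sp6, Sp8 and Sp6+Sp8 cKO libraries. The first 3 libraries lie close together and Sp6+Sp8 cKO lies apart below them. As a share of all counts the family made up 0.207%, 0.196%, 0.195% and 0.151%. In Sp6+Sp8 cKO the sum was 1.39-fold lower than in wildtype (95% interval 1.37 to 1.41), 1.33-fold lower than in Sp6 cKO (1.30 to 1.35) and 1.31-fold lower than in Sp8 cKO (1.28 to 1.33). The last 2 comparisons are within batch label 1. The single knockouts differed little from wildtype, by 1.05-fold (1.03 to 1.06) for Sp6 cKO and 1.06-fold (1.05 to 1.08) for Sp8 cKO, both lower. Sp8 cKO and Sp6 cKO differed from each other by a log2 ratio of -0.02, with an interval of the ratio from 0.968 to 1.00 that includes 1.

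**Figure D1:**
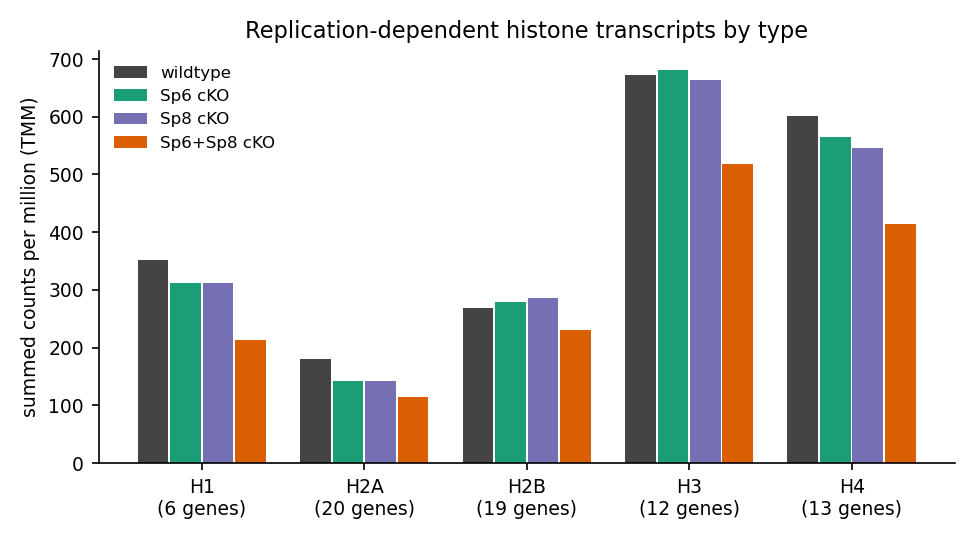
Summed CPM (vertical axis, TMM scaled) of the genes of each histone type (horizontal axis) in the 4 libraries, 1 bar per library. The Sp6+Sp8 cKO bar is the lowest of the 4 for every type, from 114 CPM for H2A to 519 CPM for H3.

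Single genes followed the sums. Of the 63 histone genes with at least 1 CPM in any library, 39 had their lowest level in Sp6+Sp8 cKO, 10 in Sp8 cKO, 9 in wildtype and 5 in Sp6 cKO. Over all 17332 genes at that level, 32.8% were lowest in Sp6+Sp8 cKO. The log2 ratio of Sp6+Sp8 cKO to wildtype was below 0 in 52 of 63 histone genes, with a median of -0.51. It was below 0 in 54 of 62 genes against Sp6 cKO (median -0.38) and in 51 of 62 against Sp8 cKO (median -0.40). Over all genes compared, 51.9%, 51.5% and 52.5% were below 0, with medians of -0.02, -0.01 and -0.02. The medians of the single knockouts over wildtype were nearer 0, at -0.12 for Sp6 cKO and -0.18 for Sp8 cKO, and that of Sp8 cKO over Sp6 cKO was -0.00.

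**Figure D2:**
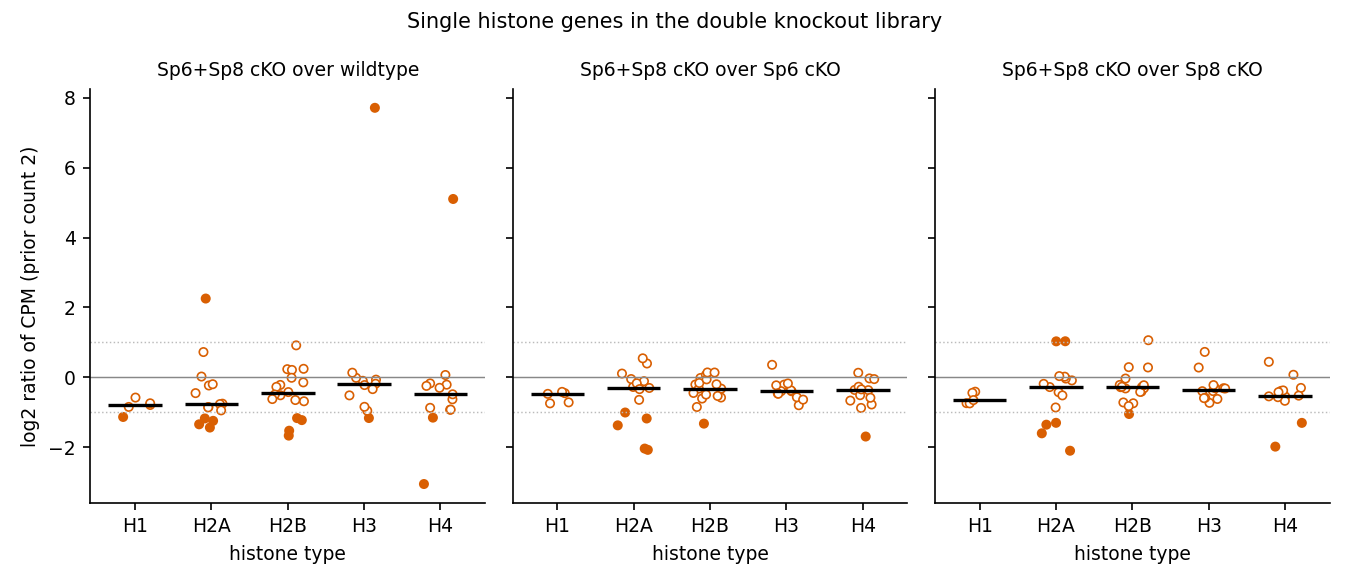
Log2 ratio of CPM (vertical axis, prior count 2) of Sp6+Sp8 cKO over wildtype, Sp6 cKO and Sp8 cKO (panels) for each measured histone gene, by type. Each point is 1 gene, black lines are medians of a type, filled points passed the size rule and dotted lines mark 2-fold; the 15 medians all lie below 0.

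A gene passed the size rule when its ratio was at least 2-fold, its CPM at least 1 in either library and its counting interval excluded 1. In Sp6+Sp8 cKO over wildtype 12 histone genes were lower (2.95% of all genes were) and 3 higher (2.84%), of 63 measured. Against Sp6 cKO 7 were lower (2.08% of all genes) and 0 higher (1.89%), of 62. Against Sp8 cKO 7 were lower (2.8%) and 2 higher (1.88%), of 62. In Sp6 cKO over wildtype 2 were lower (2.16%) and 4 higher (2.24%). In Sp8 cKO over wildtype 5 were lower (1.55%) and 5 higher (2.27%). Between Sp8 cKO and Sp6 cKO 2 were lower in Sp8 cKO (1.35%) and 0 higher (1.75%).

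Fewer calls were made once copies that share sequence were added up, which also left fewer units to call. A gene joined through few windows loses its own call in this way, as Hist1h4i did with 2.08% of windows shared. With counts summed within the 26 groups, of which 23 were measured, 0 groups passed in the comparisons of Sp6 cKO and Sp8 cKO with wildtype and with each other. In Sp6+Sp8 cKO 2 groups were lower than in wildtype (2.95% of all single genes were), 2 lower than in Sp6 cKO (2.08%) and 1 lower than in Sp8 cKO (2.8%), and 0 were higher. The group of Hist2h2aa1 and Hist2h2aa2, a pair of H2A genes of the Hist2 cluster, was counted in each of these, and Hist2h2ac, a further H2A gene of that cluster, in the first and second.

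In Sp6+Sp8 cKO the linker histones were the type furthest below wildtype, while in the single knockouts H2A was. H1 genes summed to 352 CPM in wildtype and 313, 312 and 214 in the Sp6, Sp8 and Sp6+Sp8 cKO libraries. All 5 measured H1 genes were highest in wildtype and lowest in Sp6+Sp8 cKO. The H1 sum in Sp6+Sp8 cKO was 1.65-fold lower than in wildtype (1.58 to 1.72), 1.46-fold lower than in Sp6 cKO (1.40 to 1.53) and 1.46-fold lower than in Sp8 cKO (1.39 to 1.53).

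Hist1h1c (chr13:23738808-23740367, plus strand, 1 exon), a somatic linker histone found in many tissues, gave the most H1 counts. Its counts were 3837 in wildtype and 2084, 1978 and 1816 in the Sp6, Sp8 and Sp6+Sp8 cKO libraries, or 176, 162, 157 and 118 CPM. The levels in the first 3 libraries were close, and the Sp6+Sp8 cKO level was 1.37-fold below Sp6 cKO (1.28 to 1.46). No 150-base window of its transcript was shared with another gene.

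Hist1h1d, also without shared windows, had 86.2, 81.8, 83.1 and 49.7 CPM. It was 1.65-fold lower in Sp6+Sp8 cKO than Sp6 cKO (1.5 to 1.81) and 1.67-fold lower than in Sp8 cKO (1.52 to 1.84). Hist1h1e had 48.0, 36.6, 36.6 and 21.8 CPM and was the 1 linker histone past the size rule against wildtype, 2.20-fold lower in Sp6+Sp8 cKO than in wildtype (1.95 to 2.5). Of its windows 19.5% were shared, with the overlapping gene Hist1h2be or with Gm11398, which had at most 12 counts. Hist1h1b, the fourth by level, had 24.2, 20.1, 19.7 and 14.4 CPM. All 4 copies were highest in wildtype and lowest in Sp6+Sp8 cKO.

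Among all histone types, H4 held the copy with the highest level per length. Hist1h4d had a mean of 429 CPM per kilobase of coding sequence. The leading copies of the other types were Hist1h1c at 241 (H1), Hist1h3e at 205 (H3), Hist1h2bg at 125 (H2B) and Hist3h2a at 64.6 (H2A). Transcripts that run past the coding sequence collect more reads on this scale, so it ranks copies only roughly.

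The H4 genes summed to 602 CPM in wildtype and 565, 546 and 413 in the Sp6, Sp8 and Sp6+Sp8 cKO libraries. The sum in Sp6+Sp8 cKO was 1.46-fold lower than in wildtype (1.41 to 1.5), 1.37-fold lower than in Sp6 cKO (1.32 to 1.41) and 1.32-fold lower than in Sp8 cKO (1.27 to 1.37). Mammalian H4 genes are known to encode the same protein, so the sum describes the H4 mRNA captured here.

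Hist1h4d (chr13:23581598-23582735, plus strand, 1 exon), with no shared window, had 2811, 1851, 1842 and 1719 counts, or 129, 144, 146 and 112 CPM. It was slightly higher in the single knockouts than in wildtype, and 1.28-fold lower in Sp6+Sp8 cKO than Sp6 cKO (1.20 to 1.37). Hist4h4 (chr6:136801553-136804415, minus strand), the only member on chromosome 6, had 78.7, 70.9, 60.4 and 41.3 CPM. Hist2h4 had 66.3, 55.4, 55.6 and 34.8 CPM, 1.59-fold lower in Sp6+Sp8 cKO than Sp6 cKO (1.42 to 1.78). These 3 genes from 3 chromosomes, with less than 1% of windows shared, all had their lowest level in Sp6+Sp8 cKO.

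Hist1h4i (chr13:22040636-22041362, minus strand, 1 exon) had a different pattern. Its counts were 314 in wildtype and 19, 28 and 25 in the Sp6, Sp8 and Sp6+Sp8 cKO libraries. It was low in all 3 libraries of batch label 1 and high only in wildtype. Against wildtype it was 9.80-fold lower in Sp6 cKO (6.17 to 16.5), 6.5-fold lower in Sp8 cKO (4.41 to 9.94) and 8.89-fold lower in Sp6+Sp8 cKO (5.91 to 13.9). Only 2.08% of its windows were shared with another gene. Batch and knockout cannot be told apart for this gene. Hist1h4b, of the same sequence group, had 39, 46, 61 and 29 counts and was highest in Sp8 cKO.

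Hist1h4m and Hist1h4n, the H4 pair with identical coding sequences printed above, had opposite patterns. Hist1h4m (chr13:21811746-21812147) had 3 counts in wildtype and 381, 455 and 139 in the Sp6, Sp8 and Sp6+Sp8 cKO libraries. Hist1h4n (chr13:21831767-21832196) had 2094, 692, 486 and 808 counts in that order. Hist1h4m was thus nearly absent in wildtype alone, where Hist1h4n was at its highest.

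The Hist1h4m ratios to wildtype were 214 for Sp6 cKO (72.7 to 1043), 262 for Sp8 cKO (89.0 to 1274) and 65.5 for Sp6+Sp8 cKO (21.9 to 321), all resting on 3 counts in wildtype. Summed, the pair had 2097, 1073, 941 and 947 counts, or 96.4, 83.2, 74.7 and 61.5 CPM. The pair sum was 1.57-fold lower in Sp6+Sp8 cKO than in wildtype (1.45 to 1.69), 1.35-fold lower than in Sp6 cKO (1.24 to 1.48) and 1.21-fold lower than in Sp8 cKO (1.11 to 1.33). The sum followed the order of the whole type, and 85.8% of the windows of Hist1h4m were shared.

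**Figure D3:**
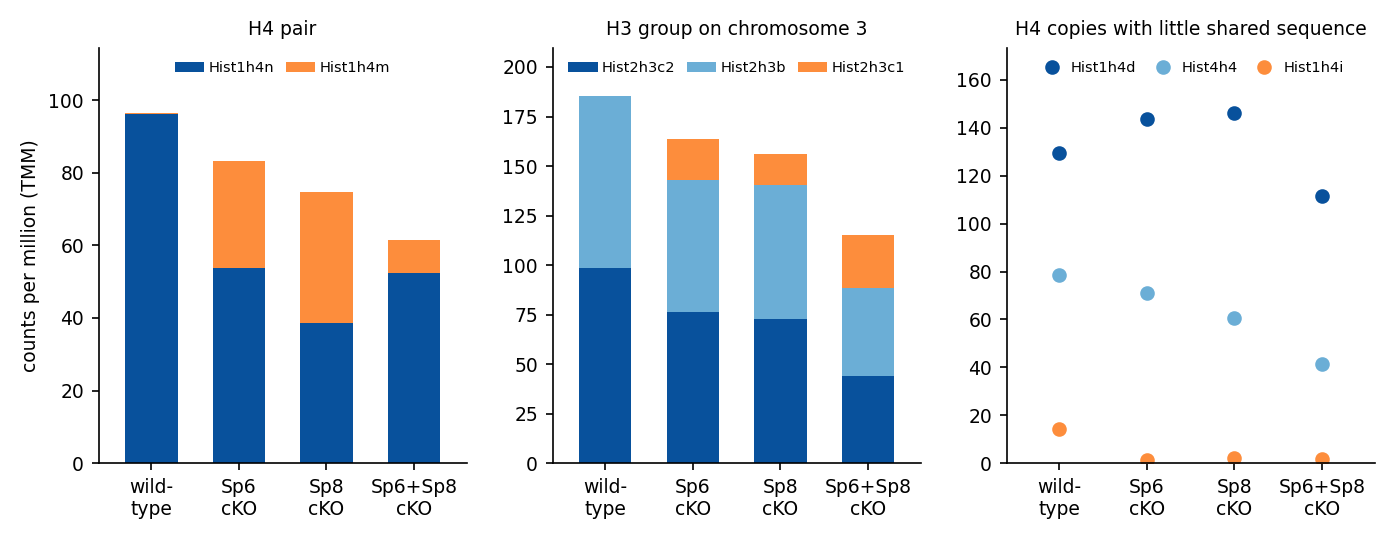
CPM (vertical axes, TMM scaled) in the 4 libraries for the H4 pair and the H3 group of the Hist2 cluster, stacked by copy, and for 3 H4 copies with little shared sequence as points. Hist1h4m and Hist2h3c1 (orange in the stacks) are near 0 in wildtype while the whole stacks go from 96.4 CPM in wildtype to 61.5 in Sp6+Sp8 cKO and from 186 to 115 CPM, and Hist1h4i (orange points) is low in the 3 cKO libraries.

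H3 was the most abundant type, with 672 CPM in wildtype and 680, 664 and 519 in the Sp6, Sp8 and Sp6+Sp8 cKO libraries. The ratios of the single knockouts to wildtype were 1.01 (0.987 to 1.04) for Sp6 cKO and 0.988 (0.962 to 1.02) for Sp8 cKO, both intervals including 1. The Sp6+Sp8 cKO sum was 1.29-fold lower than in wildtype (1.26 to 1.33), 1.31-fold lower than in Sp6 cKO (1.27 to 1.35) and 1.28-fold lower than in Sp8 cKO (1.24 to 1.32).

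Hist1h3e, the copy with the highest mean level, had 76.3 CPM in wildtype and 93.8, 93.5 and 71.2 in the Sp6, Sp8 and Sp6+Sp8 cKO libraries. It was 1.32-fold lower in Sp6+Sp8 cKO than Sp6 cKO (1.21 to 1.43), and its interval against wildtype, 0.992 to 1.16 for the fold lower, included 1. Hist1h3f resembled it, with 63.1, 78.1, 79.5 and 60.3 CPM. Hist1h3i differed in being highest in wildtype, with 96.3, 77.8, 83.5 and 67.3 CPM. The 9 H3 genes of the Hist1 cluster share windows and summed to 486, 516, 508 and 403 CPM, so that as a group they too were lowest in Sp6+Sp8 cKO.

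The 3 H3 genes of the Hist2 cluster encode H3 copies that also share reads. Hist2h3c1 (chr3:96246685-96248509) had 0 counts in wildtype and 269, 203 and 412 in the Sp6, Sp8 and Sp6+Sp8 cKO libraries. Against the floor of 3 counts in the wildtype library it was at least 151-fold higher in Sp6 cKO, at least 117-fold in Sp8 cKO and at least 194-fold in Sp6+Sp8 cKO. Hist2h3c2 (chr3:96238108-96239127), with the identical coding sequence, had 2143, 986, 918 and 675 counts. With Hist2h3b the group had 4035, 2113, 1969 and 1776 counts, or 186, 164, 156 and 115 CPM.

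All 150-base windows of Hist2h3c1 were shared, and the gene lies within the processed transcript Gm20634 (chr3:96245554-96248509), which is annotated on the same strand. Gm20634 itself had 466, 65, 77 and 61 counts, so it was high where Hist2h3c1 was listed at 0. With Gm20634 added the group had 207, 169, 162 and 119 CPM. The group was lowest in Sp6+Sp8 cKO with or without it.

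H2A genes summed to 180 CPM in wildtype and 143, 143 and 114 in the Sp6, Sp8 and Sp6+Sp8 cKO libraries. This type was lower than wildtype in all 3 cKO libraries, by 1.26-fold in Sp6 cKO (1.19 to 1.33), 1.26-fold in Sp8 cKO (1.19 to 1.33) and 1.58-fold in Sp6+Sp8 cKO (1.49 to 1.67). Within batch label 1 it was 1.25-fold lower in Sp6+Sp8 cKO than in either single knockout (1.17 to 1.34 for each).

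Hist2h2ac (chr3:96220361-96220880), the 1 gene past the size rule among the 14 without shared windows, had 112, 59, 46 and 30 counts. It was 2.64-fold lower in Sp6+Sp8 cKO than in wildtype (1.75 to 4.10) and 2.35-fold lower than in Sp6 cKO (1.49 to 3.77). Hist2h2aa2 had 109, 122, 69 and 33 counts, 4.41-fold lower in Sp6+Sp8 cKO than Sp6 cKO (2.98 to 6.69), and its partner Hist2h2aa1 was at 0 in all 4 libraries. This pair also shares windows with Gm20634, described above, so its reads too can be divided in more than 1 way. The low counts of these H2A genes leave wide intervals.

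The H2A copies of the Hist1 cluster share windows within a group of 12 genes, and single copies there were uneven. Hist1h2ab had 12 counts in wildtype and 107, 174 and 48 in the Sp6, Sp8 and Sp6+Sp8 cKO libraries. Hist1h2ah had 597, 180, 70 and 177 counts, and Hist1h2ae 89, 81, 58 and 22. Hist1h2ab was lowest in the library where Hist1h2ah was highest. The group sum was 112, 87.3, 86.7 and 70.6 CPM, highest in wildtype and lowest in Sp6+Sp8 cKO as the type was.

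The 3 H2A copies with the highest mean levels varied less. Hist3h2a, the first of them, had 26.5, 24.3, 27.4 and 22.6 CPM, and 28.0% of its windows were shared with the overlapping gene Trim17 (25, 16, 22 and 23 counts). Hist1h2ap had 27.0, 19.7, 21.4 and 15.9 CPM, and Hist1h2al, which the annotation calls a pseudogene, had 22.7, 11.6, 13.3 and 12.5 CPM. Hist1h2ac (25, 32, 17 and 18 counts), Hist1h2ad (22, 15, 10 and 27) and Hist1h2ag (69, 35, 57 and 26) each passed the rule in some comparison on few counts and belong to the 12-gene group.

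H2B genes summed to 270 CPM in wildtype and 279, 287 and 231 in the Sp6, Sp8 and Sp6+Sp8 cKO libraries. The Sp6+Sp8 cKO sum was 1.17-fold lower than in wildtype (1.12 to 1.22), 1.21-fold lower than in Sp6 cKO (1.15 to 1.27) and 1.24-fold lower than in Sp8 cKO (1.18 to 1.30). The sum in the single knockouts depended on Hist1h2bg, the copy with the highest mean level. Hist1h2bg had 26.5, 50.9, 60.9 and 50.2 CPM, 2.29-fold higher in Sp8 cKO than in wildtype (2.06 to 2.56). Of its windows 39.0% were shared with other genes, and it belongs to the group of 14 genes described below. Its reads can therefore be divided in more than 1 way. Without Hist1h2bg the H2B log2 ratios to wildtype turned from 0.05 to -0.092 in Sp6 cKO and from 0.09 to -0.11 in Sp8 cKO. That in Sp6+Sp8 cKO went from -0.22 to -0.43.

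The other H2B copies were mixed. The protein-coding Hist2h2bb had 34.8, 30.5, 30.3 and 24.3 CPM, and the second identifier with that symbol, annotated as a lincRNA, had 83, 29, 36 and 24 counts. Hist1h2bc had 18.7, 25.4, 29.3 and 22.0 CPM, and Hist1h2bk 26.3, 24.4, 27.4 and 16.3. Hist1h2bn had 21.6, 18.8, 15.5 and 7.4 CPM and in Sp6+Sp8 cKO was past the rule against each other library, 2.09-fold lower than Sp8 cKO (1.65 to 2.66). Hist1h2bp had 42, 5, 7 and 8 counts, high in wildtype alone, and Hist1h2bq 45, 25, 7 and 20. The Hist1 genes among these share windows within a group of 14 genes, which also takes in Hist1h1e through its overlap with Hist1h2be and which summed to 248, 251, 260 and 200 CPM.

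Evenness over libraries varied widely between copies. Among the 62 genes with a mean of at least 1 CPM, the range of log2 CPM over the 4 libraries was narrowest for Hist1h2be (0.22), Hist1h2af (0.23) and Hist3h2a (0.28). It was widest for Hist2h3c1 (7.72), Hist1h4m (7.09) and Hist1h2ab (4.36), each with at least 45.1% of windows shared. The median range was 0.79 in the 11 genes without shared windows, 0.64 in the 13 with up to 20% shared, 0.64 in the 17 with 20% to 50%, and 1.03 in the 19 with at least 50%. Hist1h4i, at 3.19, was the widest among genes with under 20% of windows shared.

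**Figure D4:**
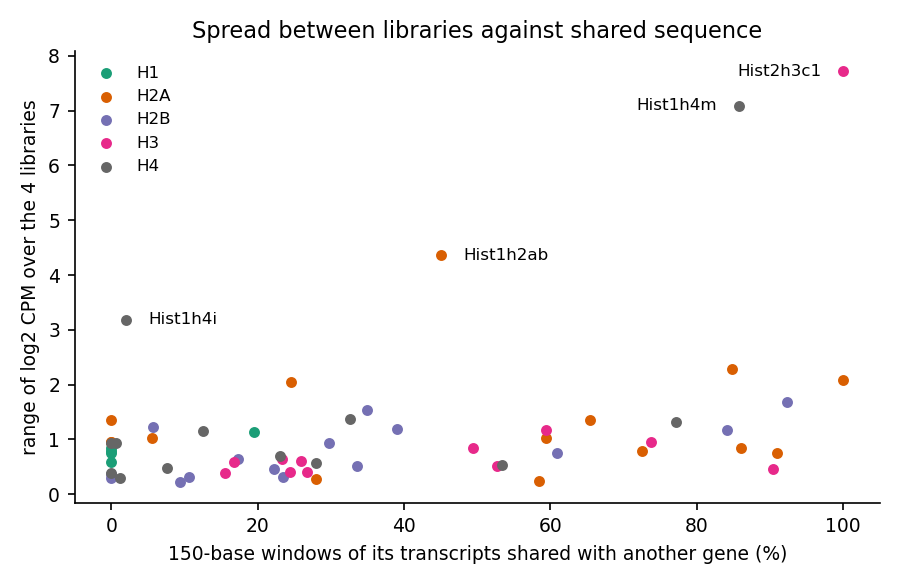
Range of log2 CPM over the 4 libraries (vertical axis) against the percentage of 150-base transcript windows shared with another gene (horizontal axis), 1 point per histone gene with a mean of at least 1 CPM and an entry in GENCODE M21. Hist2h3c1, Hist1h4m and Hist1h2ab stand apart at shared percentages from 45.1 to 100, and Hist1h4i stands apart near 2.

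The lower level in Sp6+Sp8 cKO was also present in genes that shared few or no 150-base windows. Such genes can still share shorter stretches. Among those without a shared 150-base window, the part of 31-base windows shared ran from 0% in Hist1h1t to 70.0% in Hist1h2ak and 81.9% in Hist1h2al. The 14 genes without shared windows summed to 547 CPM in wildtype and 507, 511 and 369 in the Sp6, Sp8 and Sp6+Sp8 cKO libraries. Their sum was 1.48-fold lower in Sp6+Sp8 cKO than in wildtype (1.44 to 1.53), 1.38-fold lower than in Sp6 cKO (1.33 to 1.43) and 1.39-fold lower than in Sp8 cKO (1.34 to 1.44). The ratio was below 0 in each transcript class. In Sp6+Sp8 cKO over Sp6 cKO the log2 ratio of the summed CPM was -0.44 for genes whose transcript runs on past the stem-loop and -0.44 for those ending near it, and -0.28 for those without a match.

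Copies known for expression in testis served as a check on background. Hist1h1t had 4, 0, 2 and 3 counts, Hist1h2ba 3, 1, 2 and 0, and Hist1h2aa 0 in all libraries. All stood near the floor of 3 counts, which is 0.138 CPM in wildtype and 0.195 to 0.238 CPM in the cKO libraries.

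Histone promoters are known for a TATA box, CCAAT boxes and, in H2B genes, an octamer element. The 250 bases before the RefSeq start (GRCm38.p6) were searched on both strands for 61 histone genes matched by symbol. TATAAA was present in 47.5% of them against 13.0% of all 27025 promoters, CCAAT in 82.0% against 34.5%, and TTTGCAT, part of the octamer, in 23.0% against 4.06%. The CCAAT share did not hold for H4, where Hist1h4a, Hist1h4c and Hist1h4d had a match and the other H4 promoters searched had none. None of these motifs contains another. The TTTGCAT matches fell in H2A as well as H2B promoters, and in that of Hist1h4c. Searched windows of neighbouring genes can overlap, as those of Hist1h2ae and Hist1h2bg did, so the same match can count for both genes. The promoters below are shown because their genes lead the H4 and H1 types or, for Hist1h4i, differ from the rest, each as the 120 bases before the start with matches in capitals.
Hist1h4d (chr13:23581448-23581567, plus strand): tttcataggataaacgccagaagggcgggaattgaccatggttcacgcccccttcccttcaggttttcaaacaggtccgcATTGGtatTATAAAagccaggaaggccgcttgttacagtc
Hist1h1c (chr13:23738687-23738806, plus strand): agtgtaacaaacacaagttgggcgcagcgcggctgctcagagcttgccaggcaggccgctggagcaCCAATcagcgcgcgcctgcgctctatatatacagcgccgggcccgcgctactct
Hist1h4i (chr13:22041363-22041482, minus strand): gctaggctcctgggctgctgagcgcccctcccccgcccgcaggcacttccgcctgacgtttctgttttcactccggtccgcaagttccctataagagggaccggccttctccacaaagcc

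Hist1h4d holds TATAAA and ATTGG, the reverse complement of CCAAT, and Hist1h1c holds CCAAT. The 120 bases shown for Hist1h4i hold none of the motifs, but its 250-base window holds TATAAA on 1 of the strands farther from the start, so it counts among the promoters with that motif. Only exact letters were searched, so near matches such as tataag in the Hist1h4i stretch and tatata in that of Hist1h1c were not counted. The matches counted describe the sequence only.

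Genes of DNA replication and the cell cycle had another order over the libraries. The 26 S phase genes summed to 488 CPM in wildtype and 568, 531 and 578 in the Sp6, Sp8 and Sp6+Sp8 cKO libraries, highest where the histone sum was lowest. Pcna, the replication clamp, had 29.2, 33.3, 31.5 and 32.5 CPM, and Mcm2, a subunit of the replicative helicase, 21.1, 26.8, 24.7 and 25.1. None of the 26 passed the size rule in any of the 6 comparisons, and their median log2 ratio of Sp6+Sp8 cKO was 0.28 over wildtype, 0.01 over Sp6 cKO and 0.11 over Sp8 cKO. Per CPM of S phase genes, the histone sum was 4.25 in wildtype and 3.48, 3.67 and 2.58 in the Sp6, Sp8 and Sp6+Sp8 cKO libraries.

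The 14 genes of G2 and mitosis summed to 695, 648, 633 and 671 CPM, with 0 past the rule. Their sum in Sp6+Sp8 cKO lay between that in wildtype and those in the single knockouts. Mki67, a marker of cycling cells, had 337, 322, 314 and 317 CPM.

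**Figure D5:**
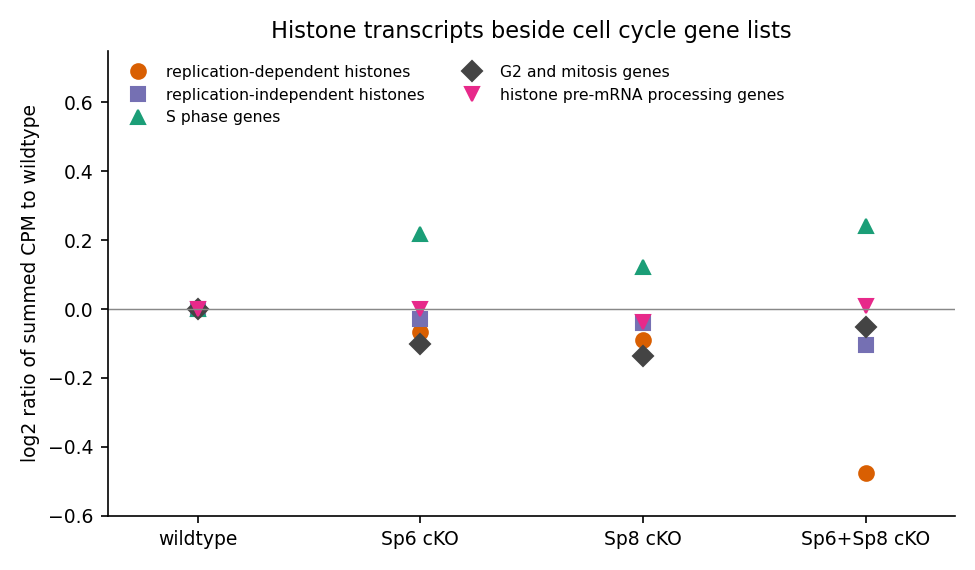
Log2 ratio of summed CPM to wildtype (vertical axis) in each library (horizontal axis) for the replication-dependent histones and 4 other gene lists, 1 point per list and library; wildtype is 0 by construction. In Sp6+Sp8 cKO the histone point is at -0.48, the S phase point at 0.24 and the other 3 lists between -0.10 and 0.01.

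Genes listed as replication-independent histones were nearly level. The 11 of them summed to 1119, 1096, 1088 and 1041 CPM, with 0 past the rule. H3f3a and H3f3b, which encode the replacement histone H3.3, had 253, 255, 262 and 230 CPM and 357, 334, 320 and 343 CPM. H2afx, a variant with a role in DNA repair, was highest in wildtype and lowest in Sp6+Sp8 cKO, with 67.5, 58.5, 61.0 and 49.6 CPM.

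Genes that process histone pre-mRNA were likewise level. The 20 measured genes of 22 listed summed to 783, 784, 764 and 789 CPM with 0 past the rule. Slbp, which binds the stem-loop, had 14.4, 17.4, 15.2 and 18.3 CPM. Npat, an activator of histone transcription, had 46.9, 48.3, 50.3 and 58.7, and Lsm11, part of the U7 particle that cuts histone pre-mRNA, had 7.77, 10.5, 11.7 and 14.8. These 3 genes were highest in Sp6+Sp8 cKO, but the list as a whole went both ways. The median log2 ratio of the 20 genes in Sp6+Sp8 cKO over wildtype was 0.00, with a range from -0.355 to 0.92. Of 11 histone chaperones, Hjurp alone passed the rule, with 115, 155, 159 and 232 CPM and a log2 ratio of 1.01 in Sp6+Sp8 cKO over wildtype, and it loads the centromere histone Cenpa.

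The capture of RNA without a poly-A tail was measured with a list of 16 such RNAs. They took 3.24% of counts in wildtype and 3.02%, 3.16% and 2.88% in the Sp6, Sp8 and Sp6+Sp8 cKO libraries, a log2 ratio of -0.20, -0.11 and -0.16 for Sp6+Sp8 cKO over wildtype, Sp6 cKO and Sp8 cKO. Of the 12 measured, Rpph1, the RNA of RNase P, was higher in each cKO library than in wildtype (97.0, 517, 1113 and 675 CPM), Rnu12 was lower in Sp6 cKO than in wildtype (log2 ratio -1.08) and Rny1 was lower in Sp6+Sp8 cKO than Sp6 cKO (-1.10). The sum of the list was lowest in the library where the histones were lowest. Its 12 measured RNAs had median log2 ratios in Sp6+Sp8 cKO of -0.25 over wildtype, -0.01 over Sp6 cKO and -0.07 over Sp8 cKO. The part of such RNAs in the histone result was not tested.

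Markers of cell types present in the digit tip also differed. The 8 keratinocyte and nail markers summed to 22070, 22091, 19034 and 16799 CPM. Krt34, Krt81 and Krt86, hard keratins of nail and hair, were lower in Sp6+Sp8 cKO than in both single knockouts, with log2 ratios of -1.32, -1.05 and -1.14 over Sp6 cKO and -1.35, -1.17 and -1.29 over Sp8 cKO. The basal keratins Krt5 (1997, 1900, 1856 and 2057 CPM) and Krt14 (1799, 1679, 1713 and 1701) were nearly level. The 8 bone and mesenchyme markers summed to 12322, 12532, 12020 and 9982 CPM, Bglap, the osteoblast protein osteocalcin, being lower in Sp6+Sp8 cKO than in wildtype (-1.56) and Ctsk, an osteoclast protease, higher in Sp8 cKO (1.32). Both of these sums were lowest in Sp6+Sp8 cKO, as the histone sum was, but single markers went both ways. In Sp6+Sp8 cKO the log2 ratios of bone and mesenchyme markers ran from -1.56 to 0.79 over wildtype (median -0.19). Over Sp6 cKO they ran from -0.91 to 0.62 (median -0.22). Those of keratinocyte and nail markers ran from -0.98 to 0.04 over wildtype (median -0.46).

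The 13 erythroid and marrow markers, of which 7 reached 1 CPM and Dntt was at 0 in all libraries, summed to 281, 351, 706 and 357 CPM, highest in Sp8 cKO through the globins. Hba-a2 had 68.1, 180, 256 and 172 CPM and passed the rule in each cKO library over wildtype. Hba-a1 (148, 79.9, 307 and 98.9 CPM), Hbb-bs (32.7, 57.8, 93.4 and 62.7) and Hbb-bt (9.29, 13.5, 22.4 and 10.1) were higher in Sp8 cKO than in wildtype. Mpo and Elane, made by granulocyte precursors, were lower in Sp6+Sp8 cKO than in wildtype, with log2 ratios of -1.34 and -1.39, and than in Sp8 cKO, with -1.45 and -1.45. The part of cell type in the histone result was not tested, and in bulk tissue fewer cells of a type and less RNA per cell cannot be told apart.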

How the data were processed

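The authors deposited estimated counts per gene, here rounded to whole numbers; the submitters' processing notes name Salmon, STAR, featureCounts, edgeR, deepTools and Trim Galore 0.6.4, without their roles, and build GRCm38. Per the labels' protocols, libraries were poly-A selected, strand-specific (dUTP) and sequenced as paired 150-base reads. Which annotation release was counted on was not given in the sources used here. Besides the 4 libraries, the table held 1 further column of values with no matching sample, which was not used. CPM used TMM factors (edgeR 4.0.16) over the 4 libraries, with a prior count of 2 for log2 ratios of single genes and none for sums. Sums of rounded counts gave the counting intervals (scipy 1.17.1). Gene positions, transcripts and shared windows came from GENCODE M21 and promoters from RefSeq (GRCm38.p6). Of the 70 genes, 2 identifiers (Hist1h2bh and Hist1h2bm) were not in M21 and were treated as unshared groups, although M21 lists a Hist1h2bh under another identifier that shares windows with Hist1h2bc and Hist1h2bg; 2 were annotated as pseudogenes and 1 as a lincRNA.

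The genes named were Sp6 and Sp8; the 4 histone genes of each type with the highest mean CPM; up to 5 histone genes past the size rule in each direction and comparison; those at 0 in 1 library with at least 20 counts in another; the testis copies; the 3 most and least even; and up to 4 genes per list and comparison past the rule. Further histone genes and list genes, such as Pcna, Slbp and Mki67, were named after their values were seen. The members and lists were chosen with earlier results of these data known. The script was tested on simulated counts. Alternatives were other scalings (DESeq2 1.42.0 size factors among them), prior counts, filters and fold thresholds.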

Additional observations from a re-analysis of the deposited data

How the results depend on the processing

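Under all 5 other scalings, and without the member of highest mean CPM, the sum of all histone genes stayed lower in Sp6+Sp8 cKO than in the other libraries. With library totals alone its log2 ratio was -0.45 over wildtype and -0.37 over Sp6 cKO. With totals without the 20 most abundant genes it was -0.43, -0.36 and -0.35 over wildtype, Sp6 cKO and Sp8 cKO. Alternatives added after seeing the data were totals without the RNAs lacking a poly-A tail (-0.45 and -0.37 over wildtype and Sp6 cKO), only members with under 20% of windows shared (-0.54, -0.46 and -0.45), only protein-coding members, and sequence groups. For types, totals without the 20 most abundant genes gave H3 -0.33 and H4 -0.49 over wildtype, and -0.34 and -0.40 over Sp6 cKO. Without its top copy H1 was -0.88, -0.66 and -0.69 in Sp6+Sp8 cKO over wildtype, Sp6 cKO and Sp8 cKO, and H2A, H2B and H4 over wildtype -0.75, -0.43 and -0.65. In the same way H2B, H3 and H4 over wildtype became -0.092, -0.021 and -0.16 in Sp6 cKO and -0.11, -0.062 and -0.24 in Sp8 cKO, where H2B turned from above to below 0, as did H2B and H3 in Sp6 cKO.

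Counts of single copies were less stable, and the cause was not tested. The share of all genes called under the same setting stands in brackets. At 1.5-fold, 9 (4.83%) were higher and 11 (4.26%) lower of 63 in Sp6 cKO over wildtype, 10 (3.13%) lower of 63 in Sp8 cKO over wildtype and 28 (7.05%) lower of 63 in Sp6+Sp8 cKO over wildtype. Of 62 each, 2 (3.35%) were higher in Sp8 cKO over Sp6 cKO, and 16 (4.93%) and 19 (6.38%) lower in Sp6+Sp8 cKO over Sp6 cKO and Sp8 cKO. At a CPM of at least 5, 1 of 55 (1.09%) was lower in Sp6 cKO and 3 of 54 (0.65%) in Sp8 cKO over wildtype, 1 of 53 (0.438%) lower in Sp8 cKO over Sp6 cKO, and of 52, 1 (0.768%) higher and 4 (1.43%) lower in Sp6+Sp8 cKO over Sp8 cKO. A prior count of 5 left 1 of 62 (1.65%) higher there. Of the 24 measured genes with under 20% of windows shared, 1 (2.24%) was higher and 1 (2.16%) lower in Sp6 cKO over wildtype. In Sp8 cKO over wildtype 0 (2.27%) were higher and 1 (1.55%) lower, and in Sp6+Sp8 cKO 0 (2.84%) and 5 (2.95%). Lower were 0 (1.35%) in Sp8 cKO over Sp6 cKO and 2 (2.08%) in Sp6+Sp8 cKO over Sp6 cKO. In Sp6+Sp8 cKO over Sp8 cKO 0 (1.88%) were higher and 0 (2.8%) lower. By sequence group, of 23 measured, 0 were higher or lower in Sp6 cKO and Sp8 cKO over wildtype or each other. In Sp6+Sp8 cKO 2 (2.95%), 2 (2.08%) and 1 (2.8%) were lower over wildtype, Sp6 cKO and Sp8 cKO, with 0 higher. The shares in brackets for groups are those of single genes. No paired analysis was possible because each group has 1 library, and for the same reason no replicate could be left out. With 1 library per genotype the spread between animals is unknown, and low copies have wide counting intervals.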
